A study of Mus musculus with 6 samples.

Results

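Matrix metalloproteinases (MMPs), ADAMTS proteases, the related ADAMTS-like proteins and the tissue inhibitors of metalloproteinases (TIMPs) were examined in the lungs of mice with an impaired glucocorticoid receptor (GR). Members were all protein-coding genes of the deposited read counts whose symbol begins with Mmp, Adamts or Timp followed by a number, or with Adamtsl, leaving out *Mmp8* and *Mmp9*. This gave 48 of 54532 genes, namely 20 *Mmp*, 19 *Adamts*, 5 *Adamtsl* and 4 *Timp* genes. GRdim/dim mice carry a point mutation of the GR gene in every cell of the body, which impairs dimerization of the receptor, and GR+/+ mice were their wild-type littermates of the same 129/SvEv x C57BL/6 background. All animals were 10 to 16 weeks old and went through hemorrhagic shock (1 h with the mean arterial pressure lowered to 35 mmHg), followed by 4 h of resuscitation with return of the shed blood, colloid infusion and norepinephrine under anesthesia and ventilation. Lung tissue of 3 mice per genotype was sequenced as poly(A)-captured RNA, from 2 female and 1 male GR+/+ mice and from 1 female and 2 male GRdim/dim mice. No lungs without shock are among these samples, so a genotype difference cannot be divided into one present before shock and one that followed it.

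MMPs are zinc-dependent enzymes that cleave collagens, elastin, laminins and many proteins of the cell surface, and most of them are made as inactive precursors. ADAMTS proteases are secreted relatives with thrombospondin repeats. Some cut the large proteoglycans versican and aggrecan, some trim procollagens, and one cuts von Willebrand factor, whereas ADAMTS-like proteins lack the protease domain and sit on fibrillin microfibrils. TIMPs block the active site of these enzymes, and in the lung the balance of both sides is known to shape alveolar walls, vessel walls and the passage of leukocytes.

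Of the 48 genes, 1 was called between genotypes with edgeR, *Adamts1*, a secreted protease that cleaves versican and aggrecan, where 28 of all 16568 genes tested were called. Its level in GRdim/dim lungs was 4.98 times that in GR+/+ lungs. The call was lost in 5 of 6 fits that left out 1 library. It was also lost with a covariate for sex-linked expression and with the replicate number as a block. The direction was the same in all of these fits. The remaining proteases and all 4 *Timp* genes did not pass the adjusted threshold in either direction. Per gene length, *Adamts1* stood above *Adamts10* in all 3 GRdim/dim lungs and below it in all 3 GR+/+ lungs, and it accounted for the higher summed ADAMTS level of the GRdim/dim lungs.

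The promoter of *Adamts1* is shown because this gene carries the genotype difference. It covers the 250 bases before the RefSeq start in GRCm38.p6, chr16:85803114-85803363 on the minus strand, with capitals for TGACG, the half-site of the cAMP response element (CRE), and for TATAAA, the TATA box.
*Adamts1*: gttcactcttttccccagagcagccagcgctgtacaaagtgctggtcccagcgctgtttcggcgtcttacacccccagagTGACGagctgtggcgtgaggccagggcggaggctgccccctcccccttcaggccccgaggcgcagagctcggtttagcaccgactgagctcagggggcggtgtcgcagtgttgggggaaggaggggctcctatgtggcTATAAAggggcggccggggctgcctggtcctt
The half-site begins 170 and the TATA box 32 bases before the start. Among 32851 RefSeq promoters of 300 bases (250 before and 50 after a start), 20.8% hold TGACG and 13.6% hold TATAAA on either strand. The whole CRE (TGACGTCA, which contains the half-site) stood in 1.79% of all promoters and in none of the members'. The full palindromic glucocorticoid response element stood in 21 of all promoters, or 0.0639%, and in none of the members'. A match of letters is a description and not evidence of binding.

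RefSeq promoters could be matched for 34 of the 48 genes, with 37 starts in all. The letters TGANTCA, with N for any base, are a loose form of the site of AP-1, a factor to which GR is known to tether. They were found in 7 of the 37 (18.9%) and in 7.81% of all promoters. All 7 belong to the *Mmp* genes on chromosome 9, where 8 members lie between 7272514 and 7699585. Only *Mmp27* of these 8 had no such match. The match of *Mmp20* is TGAATCA, whereas the others are TGAGTCA or TGACTCA, so the count and the background depend on the loose form. The 7 stretches are shown because they are shared by neighbouring genes with very different levels in these lungs, with the AP-1 letters in capitals and up to 30 bases on either side.
*Mmp13*: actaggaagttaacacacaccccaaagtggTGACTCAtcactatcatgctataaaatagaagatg
*Mmp12*: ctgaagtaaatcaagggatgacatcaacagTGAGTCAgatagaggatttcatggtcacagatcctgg
*Mmp1b*: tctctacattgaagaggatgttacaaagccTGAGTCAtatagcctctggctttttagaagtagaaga
*Mmp3*: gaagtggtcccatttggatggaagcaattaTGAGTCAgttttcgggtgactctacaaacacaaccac
*Mmp10*: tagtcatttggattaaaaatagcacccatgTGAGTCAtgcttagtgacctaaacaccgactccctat
*Mmp20*: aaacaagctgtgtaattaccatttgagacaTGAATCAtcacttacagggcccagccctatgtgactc
*Mmp7*: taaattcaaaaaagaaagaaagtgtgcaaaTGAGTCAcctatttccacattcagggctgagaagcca
The first base of the motif lies 35 bases before the start in *Mmp13*, 46 in *Mmp3*, 63 in *Mmp10* and *Mmp7*, 93 in *Mmp1b* and 95 in *Mmp20*. The stretches are given as on the strand of the gene, which is the minus strand for *Mmp1b* and the plus strand for the others. In GRCm38.p6 they are chr9:7272449-7272513 (*Mmp13*), chr9:7347300-7347366 (*Mmp12*), chr9:7388083-7388149 (*Mmp1b*), chr9:7445746-7445812 (*Mmp3*), chr9:7502249-7502315 (*Mmp10*), chr9:7628106-7628172 (*Mmp20*) and chr9:7691997-7692063 (*Mmp7*). Neighbouring *Mmp* genes are related in sequence, so these matches are not independent of each other. For *Mmp12* the motif lies 44 bases before a second start, which is 2993 bases inside the deposited gene. The other half-site searched, AGAACA of the glucocorticoid response element, was found in 7 of the 37 promoters (18.9%) and in 19.0% of all promoters.

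The total of the deposited counts was 16361747 to 32082940 per GR+/+ library and 15687734 to 24444604 per GRdim/dim library. The 48 genes together took between 0.224% and 0.401% of a library. Levels are CPM, counts scaled to a common library total after TMM normalization, and levels of different genes are compared only after division by the deposited gene length, as CPM per kilobase. Of the 48 genes, 38 passed the filter on low counts and were tested with edgeR's quasi-likelihood test among 16568 genes. Both genotypes were lung by their markers, since the summed level of 5 alveolar type 2 genes was 15278 to 22354 CPM in GR+/+ and 15106 to 23572 CPM in GRdim/dim libraries. *Nr3c1*, the GR gene itself, stood at 148 ± 12.2 CPM in GR+/+ and 143 ± 20.2 CPM in GRdim/dim lungs (SD, n = 3 each), which says nothing of the mutation, since counts per gene hold no bases. GR+/+ replicate 3, the library with the highest total, stood apart in the genes described here. It was the lowest of the 6 libraries in 17 of the 38 genes (44.7%), against 19.8% of all genes tested, and it also had the lowest sums of fibroblast, smooth muscle and endothelial markers.

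Per gene length, the inhibitors *Timp2* and *Timp3* stood above most proteases. In GR+/+ lungs *Timp2* was the highest gene with a mean of 193 CPM per kilobase, followed by *Timp3* with 101, *Adamts10* with 66.8, *Mmp15* with 30.7, *Adamtsl4* with 26.5 and *Adamts1* with 25.1. In GRdim/dim lungs *Timp2* had 160.1 CPM per kilobase, and *Adamts1* came next with 125, before *Timp3* with 68.7, *Adamts10* with 63.2 and *Mmp15* with 29.4. *Timp2* lay above the other members in each library but GRdim/dim replicate 2, where *Adamts1* had 171 and *Timp2* 170.2 CPM per kilobase. The order of *Timp2* and *Timp3* depends on the deposited lengths. That of *Timp3* is 8144 bases, although its longest transcript has 4722 bases, and 36.9% of its windows also occur in other genes. The order by transcript length was not examined. The libraries of *Timp3* and *Adamts10* overlapped in both genotypes, so their order is not fixed by their means. A mean over all 6 libraries above 10 CPM per kilobase was reached by 12 of the tested genes, and 14 had a mean below 1. The lowest tested member was *Adamts13* with 0.132.

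**Figure D1:**
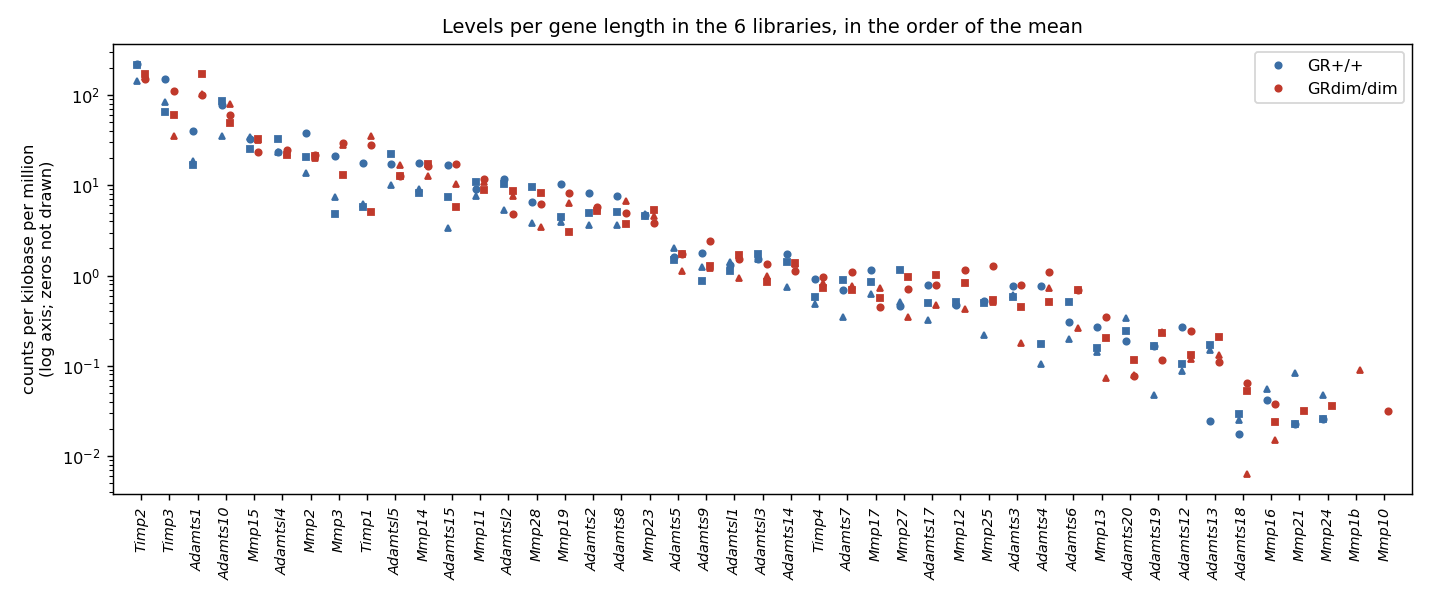
CPM per kilobase of gene length (log axis) of the 45 genes with any count, ordered by their mean over the 6 libraries. Each point is one library, blue for GR+/+ and red for GRdim/dim, with circles, squares and triangles for replicates 1, 2 and 3, and values of 0 are not drawn. Most genes show mixed colours, whereas the red points of Adamts1 all lie above the blue ones.

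Of the 10 genes that were not tested, *Mmp7* (matrilysin), *Mmp20* (an enamel protease) and *Adamts16* had 0 counts in all libraries. A count of 0 allows up to 3 counts, or 0.0935 to 0.191 CPM depending on the library, and this covers counting error only. *Mmp1b* had 2 counts in GRdim/dim replicate 3 and *Mmp10* 1 count in GRdim/dim replicate 1, and both had none elsewhere. *Mmp13*, the main interstitial collagenase of mice, had 12, 7 and 12 counts in GR+/+ and 17, 13 and 3 counts in GRdim/dim replicates 1, 2 and 3. *Mmp16*, *Mmp21*, *Mmp24* and *Adamts18* had at most 15 counts in any library. The 7 genes with an AP-1 match thus included 5 that were too low to test, beside *Mmp3* and *Mmp12*.

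*Adamts1* (ENSMUSG00000022893, chromosome 16 of GRCm38 from 85793827 to 85803113) had 211, 89.5 and 97.9 CPM in GR+/+ replicates 1, 2 and 3. The GRdim/dim replicates had 534, 909 and 541 CPM. Every GRdim/dim library lay above every GR+/+ library, and the lowest of them was more than double the highest of GR+/+. The means were 133 ± 67.9 and 661 ± 215 CPM (SD, n = 3 each), and the log2 fold change was 2.32 (standard error, SE, 0.36), with an adjusted *p* of 0.0423 in edgeR. By *p*-value it ranked 25 among the 16568 genes tested and 11 among the 12 that were called higher, and 4 called genes had a larger log2 fold change. DESeq2, the tool named in the study's methods, gave an adjusted *p* of 3.86e-10.

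The call depended on the fit. With any 1 library left out, the log2 fold change of *Adamts1* stayed between 2.02 and 2.82, but the adjusted *p* from edgeR was under 0.05 in 1 of 6 such fits (without GR+/+ replicate 1) and 0.0709 to 0.139 in the other 5. It was 0.0657 with a covariate for sex-linked expression (log2 fold change 2.31) and 0.0814 with the replicate number as a block (2.38). With 1 library left out, the unadjusted *p* from edgeR was at most 0.000464. Over all genes, those fits called 4 to 22, against 28 with all libraries. None of the windows of 31 bases of the longest *Adamts1* transcript occur in another gene, and no exon of another gene overlaps it. No read of that length is therefore shared with a relative.

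Called genes (adjusted *p* under 0.05 and log2 fold change beyond 0.5) made up 0.0724% of all genes tested in the higher and 0.0966% in the lower direction, and the members' counts were 1 and 0 of 38. With DESeq2, 0.817% of 16150 genes with an adjusted *p* were called higher and 0.879% lower, and among 37 members the counts were again 1 and 0. Before adjustment, *p* was under 0.05 in edgeR for 1 member with higher and 2 with lower levels, against 4.91% and 4.68% of all genes. The libraries of both genotypes did not overlap for 1 member with higher and 2 with lower levels, against 7.77% and 7.05% of all genes. Both of these counts came to 7.89% of the members in either direction, against 9.60% and 14.8% of all genes, so the share was not above the background in this fit. The median log2 fold change was -0.01 over the 38 members and 0.01 over all genes tested, with 18 members above and 20 below 0.

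**Figure D2:**
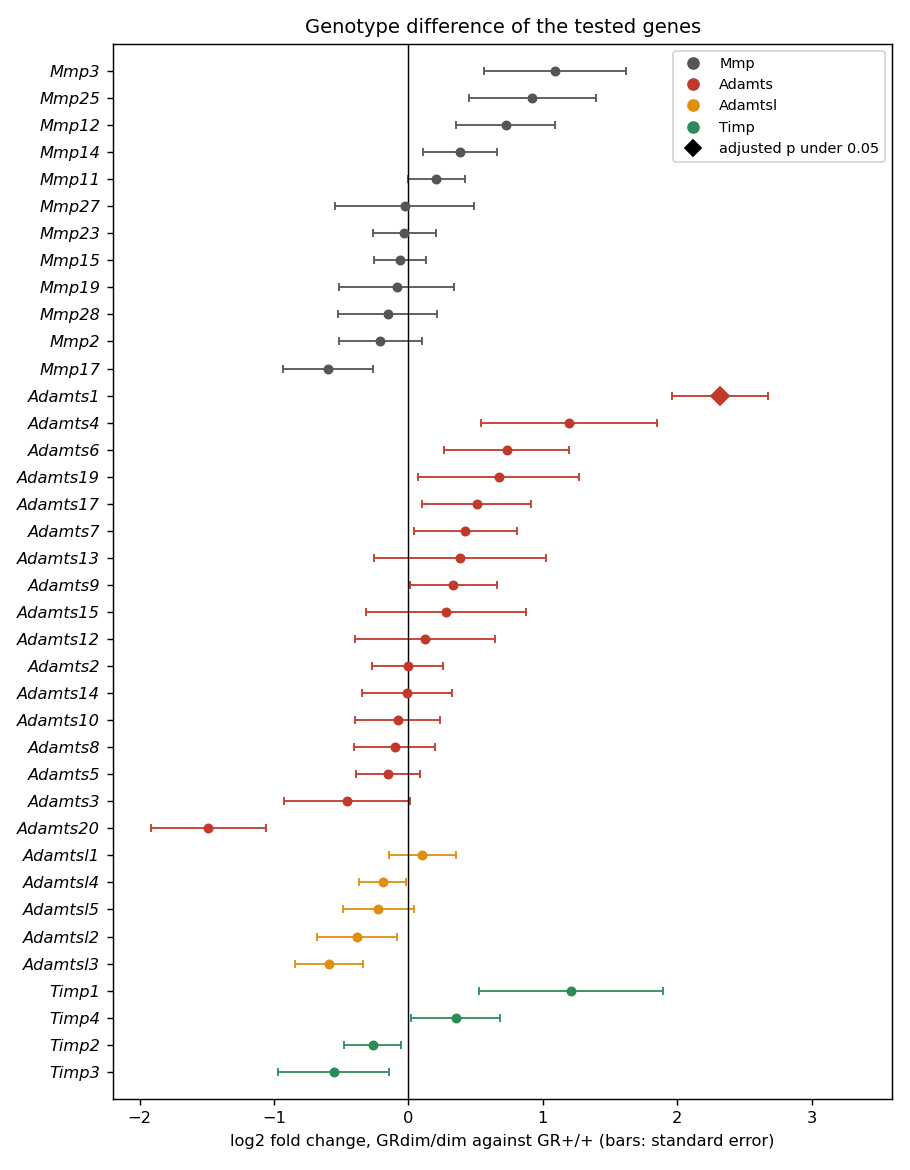
Log2 fold change of the 38 tested genes, GRdim/dim against GR+/+, from edgeR's quasi-likelihood fit, with bars for the standard error and colours for the 4 families. The diamond of Adamts1 at 2.32 is the 1 gene with an adjusted p under 0.05, and of the other 37 genes the bars of 18 reach 0 and those of 19 do not.

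*Adamts1* is 1 of 7 ADAMTS genes whose products cleave large proteoglycans, and none of the others was called. *Adamts5*, the aggrecanase that lies 53059 bases from *Adamts1* on the same chromosome, had 17.3, 16.1 and 21.9 CPM in GR+/+ and 18.9, 18.6 and 12.3 CPM in GRdim/dim lungs. The groups overlapped, and the log2 fold change was -0.15 (SE 0.24). *Adamts4*, the other classical aggrecanase, was low, with 3.65, 0.839 and 0.508 CPM in GR+/+ and 5.23, 2.45 and 3.49 CPM in GRdim/dim lungs. Its log2 fold change of 1.19 had an SE of 0.65 (adjusted *p* = 0.614 from edgeR), and GR+/+ replicate 1 lay above 2 of the 3 GRdim/dim libraries. *Adamts9* had a log2 fold change of 0.33 (SE 0.33), and the chromosome 9 neighbours *Adamts15* and *Adamts8*, 20109 bases apart, had 0.28 (SE 0.59) and -0.10 (SE 0.30). *Adamts15* was uneven, from 34.6 to 173 CPM among GR+/+ and from 59.9 to 179 CPM among GRdim/dim libraries. Of the *Adamts8* transcript, 12.1% of the windows also occur in the antisense gene *Gm29724*, and the use of strand in counting is not given in the sources used here.

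*Adamts20*, a versican-cleaving protease known from pigment cell development, had 1.67, 2.16 and 3.08 CPM in GR+/+ replicates 1, 2 and 3 and 0.701, 1.04 and 0.710 CPM in GRdim/dim replicates. These are 28, 36 and 97 counts against 13, 25 and 11 counts. The groups did not overlap, with all GRdim/dim libraries below. In edgeR the log2 fold change was -1.49 (SE 0.43), with an adjusted *p* of 0.289 (0.00531 before adjustment), and with DESeq2 the adjusted *p* was 0.152. At 0.173 CPM per kilobase, the gene is among the lowest of those tested.

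The procollagen N-propeptidases, which trim fibrillar procollagens before fibrils form, showed 0 calls among 3 genes. *Adamts2* had a log2 fold change of 0.00 (SE 0.26), *Adamts14* one of -0.01 (SE 0.33) and *Adamts3* one of -0.46 (SE 0.47). *Adamts2* varied less among GRdim/dim libraries, with 48.9 to 53.9 CPM, than among GR+/+ libraries, with 33.6 to 75.9 CPM. *Adamts7* and *Adamts12*, which cleave cartilage oligomeric matrix protein, had 0.42 (SE 0.38) and 0.12 (SE 0.52). *Adamts10*, a fibrillin-associated member and the second highest ADAMTS gene, had 426, 474 and 193 CPM in GR+/+ and 328, 265 and 440.4 CPM in GRdim/dim lungs. The groups overlapped throughout (log2 fold change -0.08, SE 0.32), and the direction reversed when GR+/+ replicate 1 or 2 or GRdim/dim replicate 2 was left out. *Adamts13*, whose product cuts von Willebrand factor, had only 2, 14 and 23 counts in GR+/+ and 10, 25 and 10 counts in GRdim/dim libraries. For *Adamts6*, *Adamts17* and *Adamts19* the log2 fold changes were 0.73, 0.51 and 0.67 with SEs of 0.46, 0.40 and 0.60.

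The ADAMTS-like genes had 4 of 5 log2 fold changes below 0, with a median of -0.22, and 0 calls. *Adamtsl3* had 11.9, 13.4 and 11.8 CPM in GR+/+ and 10.4, 6.60 and 7.62 CPM in GRdim/dim replicates 1, 2 and 3. All GRdim/dim libraries lay below the GR+/+ libraries, replicate 1 by little. Its log2 fold change was -0.59 (SE 0.25), with an adjusted *p* of 0.491 in edgeR (0.0398 before adjustment). *Adamtsl4*, known for its part in the fibrillin fibers that hold the eye lens, was the highest of them and had 98.7, 136 and 99.1 CPM in GR+/+ and 104, 91.3 and 96.5 CPM in GRdim/dim lungs. Its groups overlapped (log2 fold change -0.19, SE 0.17). *Adamtsl5* had 80.7, 105 and 47.2 CPM against 59.4, 59.5 and 80.4 CPM (log2 fold change -0.22, SE 0.27), and *Adamtsl2* and *Adamtsl1* had log2 fold changes of -0.38 and 0.10 (SEs 0.30 and 0.25).

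**Figure D3:**
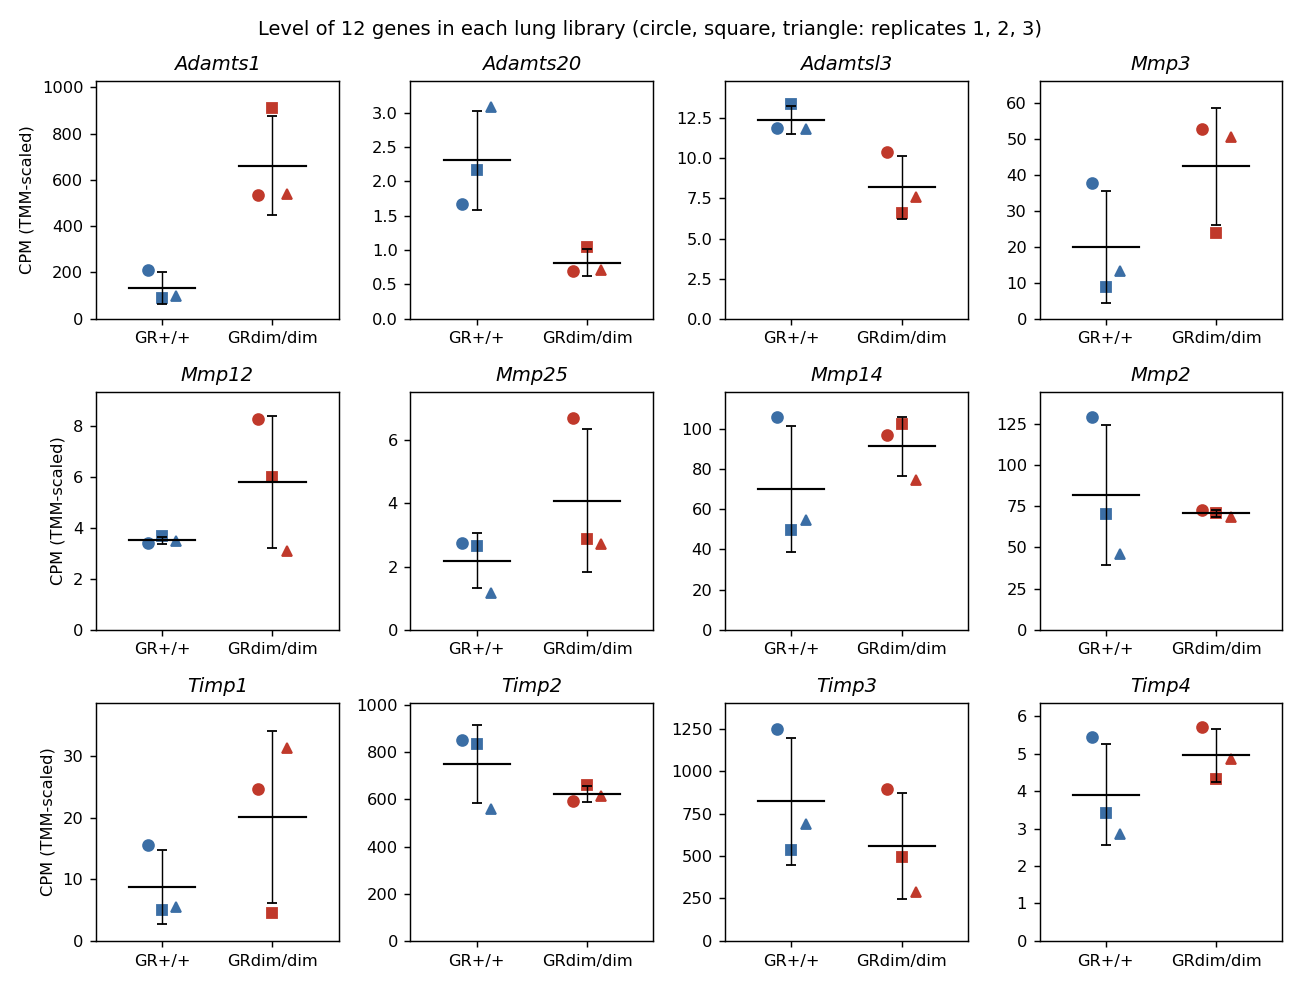
TMM-scaled CPM of 12 genes in each library, with circles, squares and triangles for replicates 1, 2 and 3, a horizontal line for the mean and a bar for the SD (n = 3 mice per genotype). Each panel has its own axis from 0. The genotypes separate for Adamts1, Adamts20 and Adamtsl3 and overlap for the other 9 genes.

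None of the 12 *Mmp* genes tested was called, and 0 of them had an unadjusted *p* under 0.05 in edgeR. The largest log2 fold change was that of *Mmp3*, stromelysin 1, which cleaves proteoglycans and laminin and activates other MMPs. Its libraries had 37.8, 8.69 and 13.2 CPM in GR+/+ and 52.7, 23.7 and 50.5 CPM in GRdim/dim replicates 1, 2 and 3. GR+/+ replicate 1 lay above GRdim/dim replicate 2, so the groups overlapped. The log2 fold change was 1.09 (SE 0.53, unadjusted *p* = 0.0698 and adjusted *p* = 0.571 from edgeR). Of the *Mmp3* transcript, 14.6% of the windows also occur in other genes, and *Mmp10*, its neighbour, had almost no counts.

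Leukocyte-associated MMPs varied with single mice. *Mmp12*, macrophage elastase, had 3.41, 3.66 and 3.46 CPM in GR+/+ and 8.25, 5.98 and 3.10 CPM in GRdim/dim lungs (log2 fold change 0.72, SE 0.37, adjusted *p* = 0.582 from edgeR). The GR+/+ mice were close together, whereas GRdim/dim replicate 3 lay below all of them. *Mmp25*, leukolysin, a membrane-anchored enzyme of neutrophils, had 2.75, 2.64 and 1.18 CPM in GR+/+ and 6.69, 2.87 and 2.71 CPM in GRdim/dim lungs (log2 fold change 0.92, SE 0.47, adjusted *p* = 0.585 from edgeR). The library with the most *Mmp25*, GRdim/dim replicate 1, was also the highest in the summed level of 6 neutrophil markers. It had 1033 CPM against 234 to 462 CPM in the other 5 libraries. All 5 neutrophil markers tested had log2 fold changes above 0 (median 0.95). The summed level of 7 alveolar macrophage markers overlapped between genotypes, with 447 to 553 CPM in GR+/+ and 432 to 567 CPM in GRdim/dim libraries. The single markers were divided, with 3 log2 fold changes above and 4 below 0 (median -0.39). None of them was called by edgeR, and 1 was called lower by DESeq2. The part of cell numbers in these values was not tested, and in whole lung tissue fewer cells of a type and less RNA per cell cannot be told apart.

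*Mmp15* and *Mmp2* were the highest MMPs per length. *Mmp15*, a membrane-type MMP, had 175, 136 and 187 CPM in GR+/+ and 127, 178 and 171 CPM in GRdim/dim lungs, a log2 fold change of -0.07 (SE 0.19). *Mmp2*, gelatinase A, had 129, 70.3 and 46.0 CPM in GR+/+ and 72.3, 71.0 and 68.3 CPM in GRdim/dim lungs. The GRdim/dim libraries lay within the range of the GR+/+ libraries, and the log2 fold change was -0.21 (SE 0.31). *Mmp14*, the membrane enzyme that activates pro-MMP2 on the cell surface, had 106, 49.5 and 54.8 CPM in GR+/+ and 97.0, 103 and 74.8 CPM in GRdim/dim lungs. GR+/+ replicate 1 was the highest of all 6, and the log2 fold change was 0.38 (SE 0.28, adjusted *p* = 0.731 from edgeR). *Mmp17*, a membrane-anchored MMP, had the lowest value among the MMPs, a log2 fold change of -0.60 (SE 0.33, adjusted *p* = 0.622 from edgeR). The log2 fold changes of *Mmp11*, *Mmp19*, *Mmp23*, *Mmp27* and *Mmp28* lay between -0.15 and 0.21. For *Mmp19*, 26.9% of the windows are shared with other genes, among them overlapping antisense genes, so its reads are uncertain.

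The 4 inhibitors did not pass the test and had 2 values above and 2 below 0. *Timp1*, the inhibitor known to be induced in inflamed tissue, had 15.6, 5.10 and 5.53 CPM in GR+/+ and 24.6, 4.53 and 31.4 CPM in GRdim/dim replicates 1, 2 and 3. Of the GRdim/dim mice, replicates 1 and 3 lay above all GR+/+ mice and replicate 2 below all of them. The gene lies on chromosome X, and the sexes were unbalanced between the genotypes. The log2 fold change of 1.21 had an SE of 0.68, the largest of all 38 genes (adjusted *p* = 0.644 from edgeR). With the covariate for sex-linked expression it was 0.25 (SE 0.31), without GR+/+ replicate 1 it was 1.92 (SE 0.71), and without GRdim/dim replicate 2 it was 1.69 (SE 0.45), with adjusted *p* of 0.924, 0.605 and 0.308 from edgeR. *Timp2*, which takes part in the activation of pro-MMP2 by MMP14, had 854, 837 and 559 CPM in GR+/+ and 595, 663 and 614 CPM in GRdim/dim lungs. The groups overlapped through GR+/+ replicate 3, and the log2 fold change was -0.27 (SE 0.21, adjusted *p* = 0.764 from edgeR). *Timp3*, a matrix-bound inhibitor that also blocks ADAMTS proteases, had 1247, 534 and 689.8 CPM in GR+/+ and 897, 493 and 288 CPM in GRdim/dim lungs. Each genotype spread more than 2-fold, and the log2 fold change was -0.56 (SE 0.42, adjusted *p* = 0.746 from edgeR). Of its transcript, 36.9% of the windows also occur in other genes, and 1733 bases of its exons are overlapped by the antisense gene *Syn3*. *Timp4* had 5.44, 3.42 and 2.86 CPM against 5.72, 4.32 and 4.84 CPM, a log2 fold change of 0.35 (SE 0.33).

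Summed over all members of a family per gene length, the ADAMTS level was 160, 128 and 70.8 CPM per kilobase in GR+/+ and 199, 243 and 212 in GRdim/dim replicates 1, 2 and 3. Each GRdim/dim library lay above all 3 of GR+/+, and *p* = 0.1 in the two-sided exact permutation test is the smallest that 3 against 3 allow. *Adamts1* made up 25.0%, 13.1% and 26.1% of this sum in GR+/+ and 50.6%, 70.5% and 48.1% in GRdim/dim lungs. Without *Adamts1* the sums were 120, 112 and 52.3 in GR+/+ and 98.4, 71.8 and 110 in GRdim/dim lungs, with overlap and a log2 ratio of the means of -0.02 in place of 0.87 (two-sided exact permutation test, *p* = 0.9). The MMP sum was 143, 91.7 and 87.1 against 125, 113 and 120 (two-sided exact permutation test, *p* = 0.5). The TIMP sum was 391, 287 and 235 against 291, 237 and 229 (two-sided exact permutation test, *p* = 0.5), and the ADAMTS-like sum 55.1, 67.8 and 42.0 against 45.0, 45.4 and 49.6 (two-sided exact permutation test, *p* = 0.4). In 3 of these 4 families the genotypes overlapped, and the *p*-values over the 4 sums were not adjusted, since none can go below 0.1.

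Markers of the cells that could carry these genes were compared in the same libraries. The summed level of 6 smooth muscle markers was 256 to 637 CPM in GR+/+ and 483 to 652 CPM in GRdim/dim libraries. That of 6 endothelial markers was 1961 to 2887 and 2426 to 2584 CPM, and that of 7 fibroblast markers 633 to 1012 and 742 to 1079 CPM. These 3 summed ranges overlapped, but single genes of the lists did not. Of the smooth muscle list, *Acta2* and *Actg2* had log2 fold changes of 0.56 and 0.85 (SEs 0.30 and 0.27) with all GRdim/dim libraries above. The endothelial gene *Cldn5*, a tight junction protein, was also higher in all GRdim/dim libraries, with a log2 fold change of 0.94 (SE 0.26, adjusted *p* = 0.288 from edgeR and 0.0273 from DESeq2). These 3 genes were chosen after their values were seen, and other members of both lists went the other way. Of the 6 endothelial markers, 1 log2 fold change was above and 5 were below 0 (median -0.16). Among those below 0, 1 had an unadjusted *p* under 0.05 in edgeR. Of the 6 smooth muscle markers, 4 were above and 2 below 0 (median 0.23). Over all genes tested, the libraries of 14.8% did not overlap. GR+/+ replicate 3 was the lowest library in all 3 sums, and without it the log2 fold change of *Adamts1* was 2.14 (SE 0.40, adjusted *p* = 0.139 from edgeR). The sums of lymphocyte markers did separate, though narrowly, with 10.3 to 22.5 CPM in GR+/+ and 23.1 to 32.1 CPM in GRdim/dim libraries for 5 T cell genes. For 4 B cell genes the sums were 21.2, 49.16 and 23.3 CPM against 49.22, 74.8 and 59.0 CPM. All 5 T cell and all 4 B cell genes had log2 fold changes above 0, and none was called by edgeR or DESeq2. Taken singly, 2 of the T cell genes and 1 of the B cell genes did not overlap. None of the markers in these lists was at 0 in all libraries, and the part of any of these cell types in the level of *Adamts1* was not tested.

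**Figure D4:**
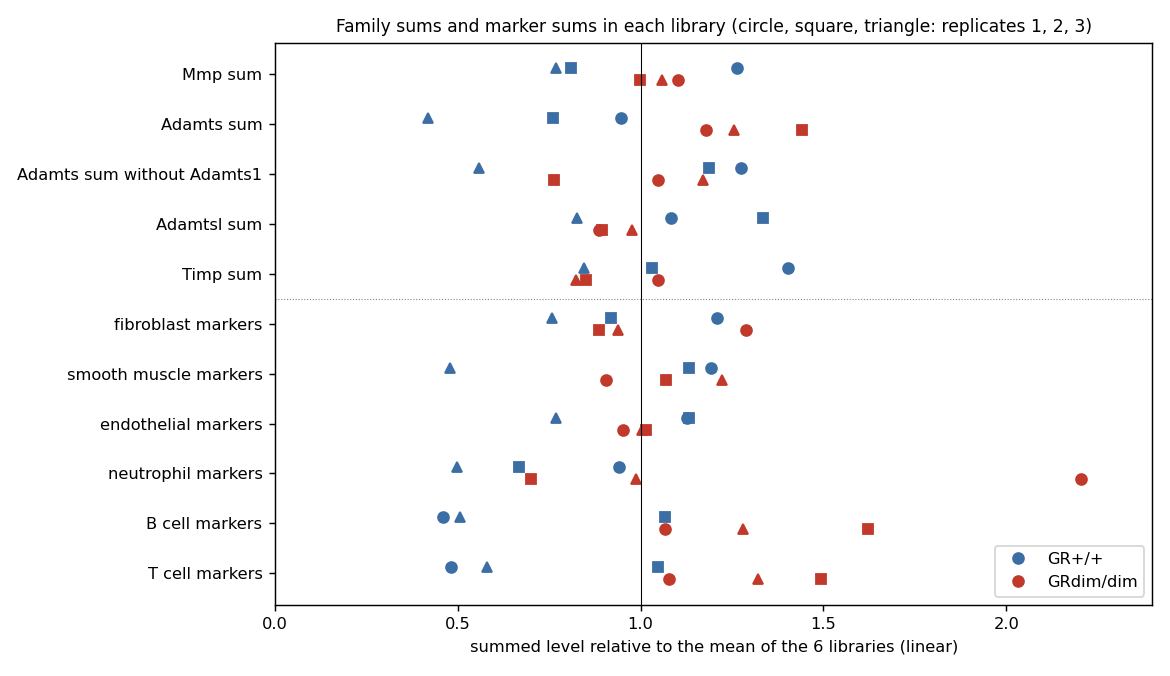
Summed levels in each library, divided by the mean of the 6 libraries, for the 4 families (per gene length), the ADAMTS genes without Adamts1, and 6 lists of cell type markers (CPM). Blue points are GR+/+ and red points GRdim/dim, with circles, squares and triangles for replicates 1, 2 and 3. The red points of the Adamts sum lie to the right of all blue points, and they mix with them once Adamts1 is left out.

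Other genes of the pathway were taken from lists of activators, inhibitors and cofactors of MMPs, of ADAM family genes and of matrix substrates. Among 23 tested genes of the first list, 0 were called by edgeR or DESeq2, and 6 had an unadjusted *p* under 0.05 in edgeR, all of them with higher levels in GRdim/dim lungs, where the background is 4.91% of all genes. The median log2 fold change of that list was 0.00, with 12 genes above and 11 below 0. *Plaur*, the urokinase receptor that focuses plasmin formation on the cell surface, had 102, 76.2 and 118 CPM in GR+/+ and 124, 184 and 222 CPM in GRdim/dim lungs. The groups did not overlap (log2 fold change 0.83, SE 0.24, adjusted *p* = 0.297 from edgeR). *Lcn2*, lipocalin 2, a neutrophil and epithelial protein, had 68.4, 38.6 and 69.8 CPM against 133, 97.8 and 80.9 CPM (log2 fold change 0.82, SE 0.26, adjusted *p* = 0.342 from edgeR). *Pcsk6*, a proprotein convertase, had 19.7, 22.8 and 26.7 CPM in GR+/+ libraries, all below those of GRdim/dim, whose highest 2 had 32.8 and 37.6 CPM (log2 fold change 0.55, SE 0.19, adjusted *p* = 0.405 from edgeR). *A2m*, a protease-trapping plasma protein, had 9, 1 and 0 counts in GR+/+ and 114, 16 and 24 counts in GRdim/dim libraries (adjusted *p* = 0.312 from edgeR). The summed neutrophil markers were 234 to 441 CPM in GR+/+ and 328 to 1033 CPM in GRdim/dim libraries. All 5 tested neutrophil markers had log2 fold changes above 0 (median 0.95). Of these, 2 had an unadjusted *p* under 0.05 in edgeR, and 1 did not overlap, against 4.91% and 7.77% of all genes in that direction. None was called by edgeR, and 1 was called higher by DESeq2, against 0.817% of all genes. The part of neutrophils in the levels of *Plaur* and *Lcn2* was not tested.

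Of the 12 genes of the ADAM family, which is related to the ADAMTS enzymes, 0 were called and 0 had an unadjusted *p* under 0.05 in edgeR. Of 28 matrix substrates tested, 0 were called by edgeR and 1 by DESeq2, and 1 with higher and 2 with lower levels had an unadjusted *p* under 0.05 in edgeR. The share with such a *p* was 10.7% in this list and 9.60% over all genes, so it was near the background. DESeq2 called 1.70% of all genes. The 1 gene called by DESeq2 was *Bcan*, brevican, a proteoglycan cleaved by ADAMTS enzymes, with 10.2, 8.39 and 5.65 CPM in GR+/+ and 13.7, 15.9 and 20.1 CPM in GRdim/dim lungs. All GRdim/dim libraries lay above, with a log2 fold change of 1.04 (SE 0.28, adjusted *p* = 0.253 from edgeR and 0.0313 from DESeq2). The laminin chain genes *Lama5* and *Lama3* had log2 fold changes of -0.55 (SE 0.18, adjusted *p* = 0.358 from edgeR) and -0.99 (SE 0.33, adjusted *p* = 0.372 from edgeR). *Vcan*, versican, the best known substrate of ADAMTS1 in vessels, is named here after its values were seen. It had 32.9, 19.2 and 15.2 CPM in GR+/+ and 65.2, 20.8 and 30.3 CPM in GRdim/dim lungs, with overlap (log2 fold change 0.79, SE 0.42, adjusted *p* = 0.601 from edgeR).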

How the data were processed

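The authors deposited raw read counts per Ensembl gene for 6 libraries, 1 per mouse, made from poly(A)-captured lung RNA by a commercial provider. The submitters' processing notes name mm10 and DESeq2. The aligner, the counting tool and the use of strand are not given in the sources used here. The members, gene lists and tests were chosen with earlier results of these data known. Of the 48 members, 47 had the same coordinates in GENCODE M21 (GRCm38).

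From these counts, edgeR 4.0.16 under R 4.3.3 gave the main test (quasi-likelihood, glmQLFTest after a robust glmQLFit), with scaling by TMM, the low-count filter of filterByExpr, which left 16568 genes, and Benjamini-Hochberg adjustment. DESeq2 1.42.0 was an alternative. The procedure was tested on simulated data. Replicates differed by more than sampling noise (chi-square per degree of freedom 19.2 to 62.9) and were used as separate samples. The labels name no batches, although mice were operated on different days, and same-numbered libraries of the 2 genotypes are not stated to be pairs. Full values are given for members with an unadjusted *p* under 0.05 in edgeR or an adjusted *p* under 0.05 in DESeq2, for all *Timp* genes, for *Mmp2*, *Mmp14* and *Mmp12*, and for the 2 highest genes of each other family per length. The library values of *Adamts4*, *Adamts5*, *Mmp3* and *Mmp25* were added after they had been seen. Of the other lists, genes called and at most 4 with the smallest *p* are named. Promoters are from RefSeq (GRCm38.p6). Shared sequence is the share of windows of 31 bases of the longest GENCODE M21 transcript that occur, on either strand, in transcripts of another gene.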

Additional observations from a re-analysis of the deposited data

How the results depend on the processing

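With RLE scaling, without a filter on low counts, with at least 10 counts in every library, with DESeq2, without a threshold on the fold change and with edgeR's likelihood-ratio test (added after the data had been seen), *Adamts1* was the 1 member called. The count was 0 with the replicate number as a block (*Adamts1* log2 fold change 2.38, adjusted *p* = 0.0814 from edgeR). It was also 0 with the covariate for sex-linked expression (2.31), and 0 to 1 with each library left out. Over all 16568 genes tested, 28 were called in the main fit, 34 with the block and 20 with the covariate. With a library left out, calls over all genes numbered 4 (without GR+/+ replicate 2) to 22 (without GRdim/dim replicate 1). RLE scaling gave 29, at least 10 counts in every library gave 29 of 15118, and the likelihood-ratio test gave 245. The correlation of same-numbered libraries was 0.24, 0.05 and -0.02, and 3 of 6 libraries correlated best with their own number. Whether same-numbered libraries share more than a number was not tested. Over all alternatives the adjusted *p* of *Adamts1* from edgeR or DESeq2 lay between 1.51e-21 (no filter, where 31368 genes entered) and 0.139 (without GR+/+ replicate 3). Without the filter its SE was 0.22 in place of 0.36 at a log2 fold change of 2.31, and 522 genes were called in place of 28. The smallest value depends on that setting and is no measure of the evidence from 3 mice per genotype. The next lowest was 3.86e-10 with DESeq2.

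Members with an unadjusted *p* under 0.05 in edgeR numbered 7 without a filter, 7 with the replicate block, 5 with the sex covariate and 3 to 6 with each library left out, in place of 3. These are 15.6%, 18.4%, 13.2% and 7.69% to 15.8% of the members, where all genes had 8.97%, 10.4%, 7.99% and 6.94% to 11.5%. Without GR+/+ replicate 1 the shares of members and of all genes were 15.8% and 6.94%, and without GR+/+ replicate 3 they were 15.4% and 8.15%. Members lay below all genes without GR+/+ replicate 2 (7.69% and 7.98%) and without GRdim/dim replicate 3 (10.3% and 11.5%). Members without overlap numbered 3 to 10 with each library left out (7.69% to 26.3%), where 21.5% to 29.6% of all genes did not overlap, since fewer libraries have to be separated. Their share was above that of all genes only without GR+/+ replicate 1 (26.3% against 21.5%). Genes of the related lists called were 5 without a filter (*A2m*, *Bcan*, *Lama3*, *Lcn2*, *Plaur*) and 1 with DESeq2 (*Bcan*), in place of 0, while calls over all genes went from 28 of 16568 to 522 of 31368 and 274 of 16150. The log2 fold change changed sign with a library left out for *Adamts10* (-0.39 to 0.16), *Mmp2* (-0.50 to 0.28), *Adamtsl5* (-0.48 to 0.063) and *Mmp15* (-0.19 to 0.076), none of which was called. The log2 ratio of the ADAMTS sums was -0.018 without *Adamts1* (added after the data had been seen) and 0.60 to 1.14 with each library left out. The MMP, ADAMTS-like and TIMP sums moved by less than the spread between mice under their alternatives. The cause of these changes was not tested. With 3 mice per genotype and SEs of 0.17 to 0.68, small differences could not be told from 0, and a *p* above the threshold does not show equal levels.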
